A study of Mus musculus with 8 samples.

Results

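The collagen genes of the mouse spinal cord were compared between mice homozygous and heterozygous for a deletion of Arf1. Members were the rows of the count table whose symbol is Col, a number, the letter a and a number; 44 of 47643 rows fitted this pattern, and no level was used to choose them. They were described as 6 fibrillar genes of types 1, 3 and 5, 6 genes of type 4, which forms basement membranes, and 32 others. RNA came from whole spinal cord of 4 C57BL/6 mice labelled homozygous and 4 labelled heterozygous, with 1 library per mouse. Tamoxifen was injected into the peritoneum at 100 mg/kg to delete Arf1, which encodes a small GTPase of Golgi membranes, and mice of 2 to 10 months were used. The labels give neither the age of each animal nor the Cre driver, and no library of wild-type mice was analysed here. The series has Arf1 in neurons as its subject.

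Every collagen chain holds a repeat of glycine followed by a pair of other residues, and chains wind in threes into a triple helix. Fibrillar collagens assemble into cross-linked fibrils of connective tissue, type 4 into the sheet under endothelium, around pericytes and at the glial surface, and the others bind fibrils, span membranes or form networks. In the adult cord fibrils are confined mostly to the meninges, nerve roots and the walls of larger vessels, while type 4 lines every capillary. The chains are made in the endoplasmic reticulum, modified and guarded there by dedicated enzymes and a chaperone, exported in large carriers, trimmed outside the cell and cross-linked.

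Arf1 itself was measured first, because it checks the labels. It stood at 22.5, 22.8 and 39.9 CPM (counts relative to the library total, scaled by TMM) in homozygous replicates 2, 3 and 4, but the library labelled homozygous replicate 1 had 307 CPM, against 296 to 334 CPM in the heterozygous libraries. That library is at the heterozygous level of Arf1, against its label, so tests are given with it (8 libraries) and without it (7 libraries). Libraries held 26321522 to 37879426 expected counts in the homozygous and 29857210 to 37803594 in the heterozygous group. Homozygous replicate 3 had 2.44% ribosomal bases where the others had 0.10% to 0.34%, and heterozygous replicate 1 had 889 TPM (abundance per gene length and library) of summed skeletal muscle markers where the others had 11.3 to 108 TPM. Heterozygous replicate 4 had a median 5-prime to 3-prime bias of 0.505, where the others had 0.413 to 0.441. The RNA integrity number was 8 in homozygous replicate 4 and 9 in the others. Markers of neurons summed to 3470 to 4742 TPM over the libraries. The labels name separate animals but not their litters or cohorts.

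The promoter bases of Col3a1 and Col1a2 are shown because these fibrillar genes are often made by the same cells and differed in size of difference between the groups, as their values below show. They are the 250 bases before the RefSeq start in GRCm38.p6, on the plus strand, at chr1:45311288-45311537 for Col3a1 and chr6:4505368-4505617 for Col1a2. Capitals mark CCAAT or its reverse complement ATTGG, and GGGCGG or its reverse complement CCGCCC; matches of the motifs can share bases, but none do in the windows shown.
Col3a1: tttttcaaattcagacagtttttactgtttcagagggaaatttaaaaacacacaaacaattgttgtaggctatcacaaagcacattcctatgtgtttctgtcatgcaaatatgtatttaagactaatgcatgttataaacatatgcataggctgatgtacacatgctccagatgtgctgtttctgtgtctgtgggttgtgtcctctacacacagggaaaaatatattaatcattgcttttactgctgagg
Col1a2: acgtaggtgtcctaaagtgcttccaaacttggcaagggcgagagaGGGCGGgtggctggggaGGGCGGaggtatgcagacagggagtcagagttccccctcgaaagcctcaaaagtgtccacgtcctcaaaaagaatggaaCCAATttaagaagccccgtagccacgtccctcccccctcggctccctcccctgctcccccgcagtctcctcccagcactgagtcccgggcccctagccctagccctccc
The Col1a2 window held 1 CCAAT, starting 109 bases before the start, and 2 copies of GGGCGG, at 205 and 188 bases. The Col3a1 window held neither motif. Of 32851 RefSeq promoter windows of this length, 33.8% held CCAAT and 32.7% held GGGCGG on either strand; of the 38 windows of 35 collagen genes, 13 (34.2%) and 22 (57.9%) did. The GENCODE M21 gene model of Col1a2 begins upstream of this RefSeq start, at 4504814, so its whole window lies inside the gene in that annotation. The table used holds no window for Col1a1.

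Several type 4 genes lie head to head, and this is shown because the 2 main chains of capillary basement membrane share a start. Col4a1 runs on the minus strand of chromosome 8 from 11312826 down to 11198423, and Col4a2 on the plus strand from 11312805 to 11449287 (GRCm38), so that their first 22 bases overlap. These bases, at chr8:11312805-11312826 on the plus strand, with GGGCGG in capitals, are the following.
Col4a1 and Col4a2: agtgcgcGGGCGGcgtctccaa
Col4a4 and Col4a3 start 71 bases apart on chromosome 1, and Col4a6 and Col4a5 1308 bases apart on chromosome X. Among other neighbours, Col3a1 and Col5a2 lie 24614 bases apart on chromosome 1 in tail-to-tail order.

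The helix repeat was counted as the longest run of glycine triplets in the longest reading frame of each gene's GENCODE transcripts. The 6 fibrillar genes had runs of 337 to 344 triplets, as had Col2a1, Col11a1 and Col11a2 of the other group, with 338 or 339. Type 4 genes had 39 to 66 triplets in the longest run, split over 23 to 27 stretches. Col24a1 and Col27a1, fibrillar genes of another branch, had 216 and 217. The run length does not separate type 4 from the other collagens: Col25a1 had 40, Col16a1 52 and Col8a1 60. Type 6 genes had 37 to 87, and Col14a1, which coats fibrils, had 32.

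Levels were compared between genes in TPM, which divides by gene length. Col25a1, a membrane-spanning collagen of neurons that motor axons need to innervate muscle in mice, was the highest by the heterozygous mean, at 11.9 ± 2.85 TPM in homozygous and 14 ± 5.69 TPM in heterozygous libraries (SD, n = 4 each). Next came Col9a3, a fibril-coating chain known from cartilage, at 9.99 ± 2.92 TPM in homozygous and 11.3 ± 5.13 TPM in heterozygous libraries. Col4a1 stood at 6.91 ± 1.23 TPM in homozygous and 9.90 ± 1.48 TPM in heterozygous libraries, and Col1a2 at 4.81 ± 1.49 TPM in homozygous and 9.20 ± 3.70 TPM in heterozygous libraries. Col16a1 stood at 6.41 ± 2.61 TPM in homozygous and 8.80 ± 0.59 TPM in heterozygous libraries, and Col4a2 at 6.46 ± 1.56 TPM in homozygous and 8.65 ± 1.25 TPM in heterozygous libraries. The spreads of these neighbours in the order overlap, so their order is not fixed by these libraries. The 8 highest genes, which include Col6a1 and Col11a2, held 58.8% of the mean collagen TPM of heterozygous libraries. In that group 2 genes had a mean of at least 10 TPM, 25 had 1 to 10 TPM and 17 less than 1 TPM; no collagen was at 0 in every library. Col10a1, a hypertrophic cartilage collagen, had 1 to 4 counts in the homozygous and 0 to 4 in the heterozygous libraries and was the one member not tested.

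The fibrillar class had the lowest ratio of homozygous to heterozygous summed level of the 3 classes, on TPM and on CPM per kilobase. Its 6 genes summed to 8.86, 7.78, 9.32 and 13.6 TPM in homozygous replicates 1 to 4, against 12.8, 14.7, 23.6 and 24.9 TPM in heterozygous replicates 1 to 4. Homozygous replicate 4 lay inside the heterozygous range and the other 3 below it. The mean was 9.89 ± 2.56 TPM in homozygous libraries, 52.0% of the 19 ± 6.16 TPM of heterozygous ones (SD, n = 4 each), and 10.2 ± 3.02 TPM (n = 3) in homozygous libraries without replicate 1. Fibrillar genes made up 10.5 ± 1.39% of all collagen TPM in homozygous libraries and 15 ± 3.38% in heterozygous ones.

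Type 4 genes summed to 16.1, 15.6, 11.7 and 16.7 TPM in homozygous libraries, against 23.1, 18.2, 18.8 and 23.3 TPM in heterozygous libraries, without overlap. The mean was 15 ± 2.25 TPM in homozygous libraries, 71.9% of the 20.9 ± 2.75 TPM in heterozygous ones (SD, n = 4 each). The 32 other collagens summed to 69.4 ± 14.5 TPM in homozygous and 85.4 ± 17.7 TPM in heterozygous libraries, with overlap, a ratio of 81.3%. TPM of most genes were lower in homozygous libraries, with a median log2 difference of -0.14 over all tested genes on the log2(TPM + 1) scale. On TMM-scaled CPM per kilobase, which lacks that shift, the ratios were 58.8% for fibrillar, 81.0% for type 4 and 91.7% for other collagens. The type 4 gap was narrow on that scale, from 10.65 in the highest homozygous to 10.8 in the lowest heterozygous library. No share of all tested genes stands beside a gap between sums. These sums carry no test.

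**Figure D1:**
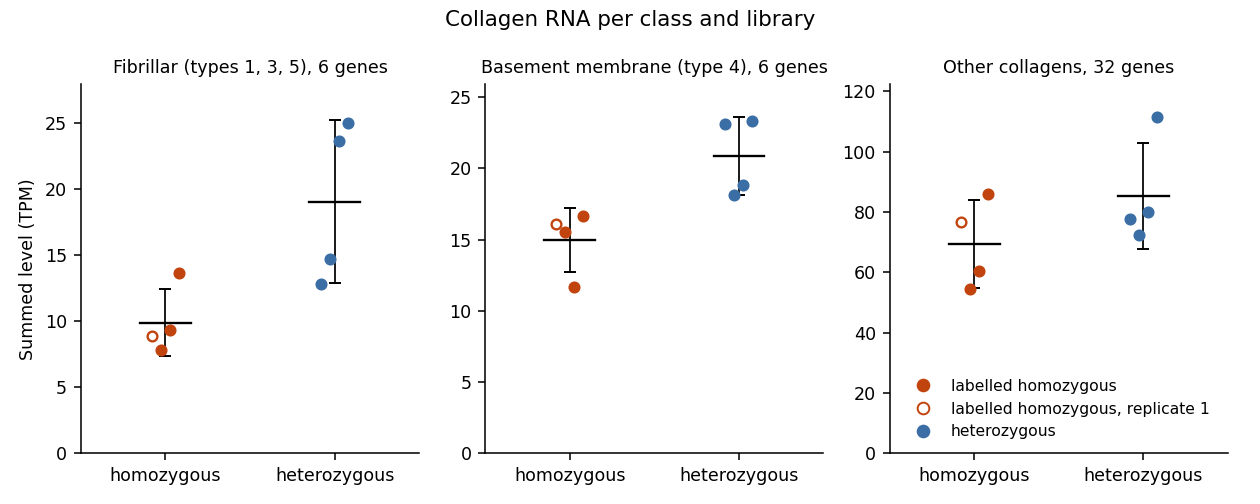
Summed TPM (vertical axes, from 0) of the fibrillar, type 4 and other collagens in each library, homozygous left and heterozygous right; lines and bars are the mean ± SD of 4 libraries, and the open point is the library labelled homozygous replicate 1. The type 4 sums do not overlap between the groups on TPM, a gap that is narrow on CPM per kilobase. The fibrillar mean is 9.89 TPM in homozygous and 19 TPM in heterozygous libraries.

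Across the 8 libraries no collagen passed edgeR's quasi-likelihood test at a Benjamini-Hochberg adjusted p of 0.05, and neither did any other gene (0% of 16511 tested genes were called lower). At an unadjusted p under 0.05, 12 of 43 tested collagens were lower and 0 higher, where 8.9% of all tested genes were lower and 7.87% higher. DESeq2 at an adjusted p under 0.05 called 6 collagens lower and 0 higher, against 2.48% of all tested genes called lower. In CPM, 10 collagens had every homozygous library below every heterozygous one, a pattern seen in 4.67% of all tested genes, and 0 had the reverse pattern, seen in 4.61%. These were Col1a1, Col2a1, Col3a1, Col4a1, Col4a2, Col4a6, Col11a2, Col14a1, Col15a1 and Col28a1. Of the 43, 32 had a log2 fold change below 0, with a median of -0.29, where 49.6% of all tested genes were below 0, with a median of 0.00. Without heterozygous replicate 4, the library with the highest 5-prime to 3-prime bias, that count was 26 of 42.

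Without the library labelled homozygous replicate 1, edgeR called 1 collagen lower, Col3a1, and 0 higher, where 0.67% of 16560 tested genes were called lower and 0.55% higher. At an unadjusted p under 0.05, 12 were lower and 1 higher, against 9.94% and 9.51% of all tested genes. DESeq2 called 7 lower, against 3.93%. The groups did not overlap for 11 collagens lower in homozygous libraries, the 10 above and Col18a1, against 8.77% of all tested genes, and for 1 higher, Col5a3, against 9.76%. On TPM, 8 of the 10 genes named for the 8 libraries did not overlap, while Col4a2 and Col15a1 did. These 10 had been picked by the same pattern in CPM, and no share of all tested genes was taken on TPM. With 8 libraries 81.1% of all tested genes were below 0 on the log2(TPM + 1) scale. A log2 fold change below 0 was seen in 34 of 43, with a median of -0.25. Leaving out 1 of the 8 libraries, the number of collagens lower at an unadjusted p was 12 without homozygous replicate 3, the library with more ribosomal bases, against 6.24% of all tested genes. It was 15 without heterozygous replicate 1, the library with muscle markers, against 8.65%. In bulk tissue, fewer cells of a type and less RNA per cell cannot be told apart.

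**Figure D2:**
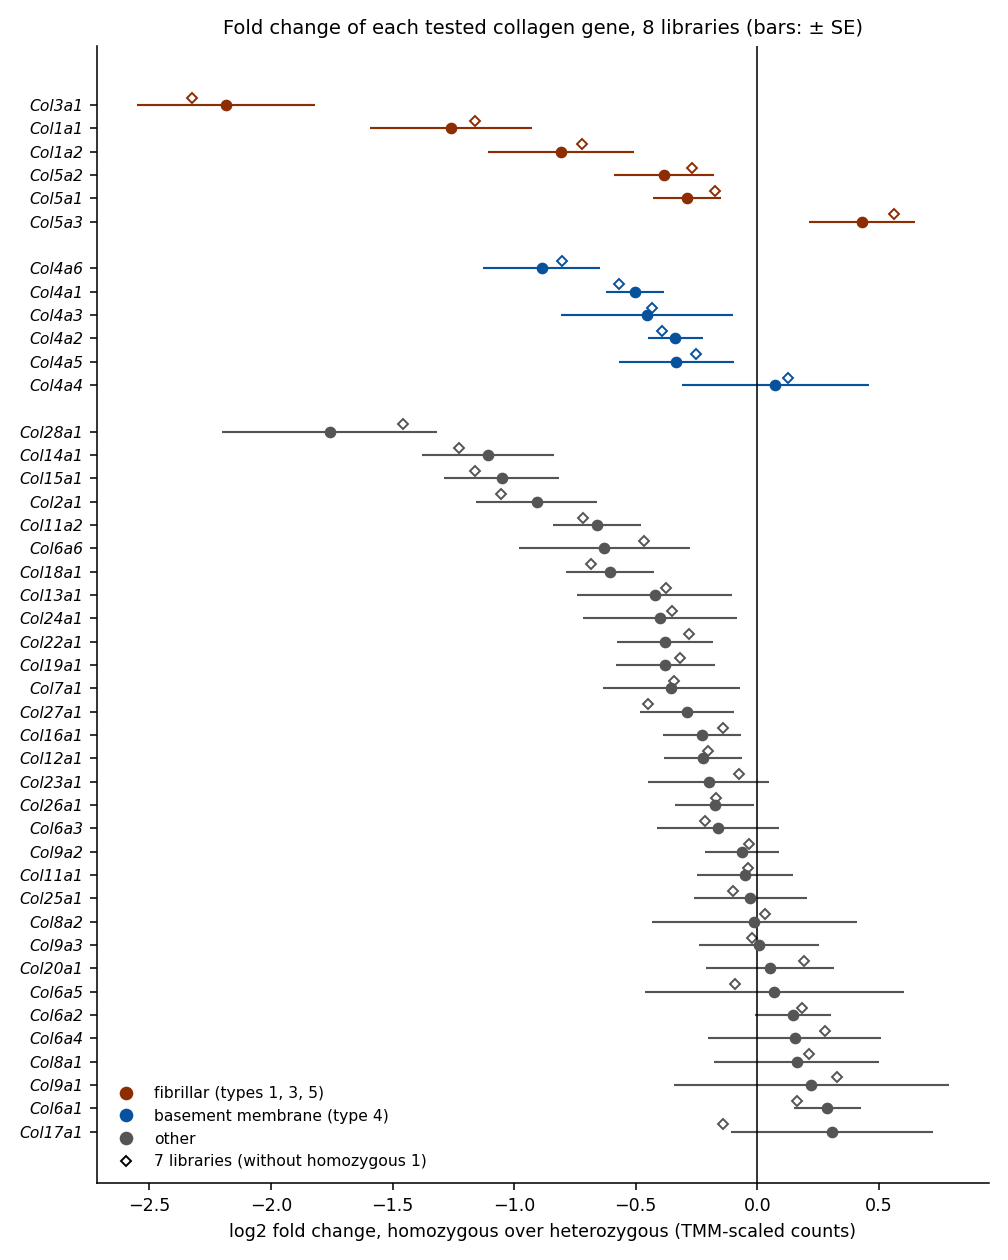
Log2 fold change of homozygous over heterozygous libraries (horizontal axis) for the 43 tested collagens, one per row, grouped as fibrillar, type 4 and other; circles with bars are the estimate ± SE from 8 libraries and open diamonds the estimate from 7. Col3a1 lies farthest left at -2.19 and Col5a3 farthest right at 0.43 with 8 libraries.

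Among the fibrillar genes, Col3a1, the chain of the thin fibrils of vessel walls and soft stroma, differed most. It stood at 2.32, 0.86, 2.10 and 2.09 CPM in homozygous replicates 1 to 4, against 5.64, 5.29, 10.9 and 11.9 CPM in heterozygous replicates 1 to 4. The highest homozygous library was below the lowest heterozygous one, and these levels rest on 23 to 89 counts in homozygous and 159 to 454 in heterozygous libraries. The log2 fold change was -2.19 (SE 0.36, edgeR adjusted p = 0.0962) with 8 libraries. With 7 libraries Col3a1 fell, at -2.33 (SE 0.43, edgeR adjusted p = 0.0498), a p next to the threshold that 8 of 13 alternatives put above it. DESeq2 gave -2.19 (adjusted p = 4.13e-07) with 8 libraries.

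Col1a1, which with Col1a2 forms type 1 collagen, stood at 3.21, 2.12, 4.75 and 6.07 CPM in homozygous libraries, against 7.03, 7.11, 11.1 and 13.4 CPM in heterozygous libraries. The groups did not overlap, and the log2 fold change was -1.26 (SE 0.33, edgeR adjusted p = 0.145) with 8 and -1.16 (SE 0.38, edgeR adjusted p = 0.155) with 7 libraries. Col1a2 stood at 12.8, 13.5, 14.1 and 21.6 CPM in homozygous and 15.3, 21.8, 36.7 and 34.7 CPM in heterozygous libraries. Here homozygous replicate 4 lay above heterozygous replicate 1, and the log2 fold change was -0.81 (SE 0.30, edgeR adjusted p = 0.244) with 8 libraries and -0.72 (SE 0.34, edgeR adjusted p = 0.302) with 7.

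Type 5 chains, which start fibrils of type 1, varied less. Col5a1 stood at 4.41 to 6.57 CPM in homozygous and 6.34 to 7.80 CPM in heterozygous libraries, and Col5a2 at 2.77 to 4.66 CPM in homozygous and 3.69 to 6.08 CPM in heterozygous libraries, each with overlap. Col5a3, a less widely used chain, was the one fibrillar gene with a log2 fold change above 0. It stood at 3.29, 4.28, 3.91 and 6.65 CPM in homozygous libraries, against 3.58, 2.59, 3.53 and 3.72 CPM in heterozygous libraries, with a log2 fold change of 0.43 (SE 0.22, edgeR adjusted p = 0.341) and, with 7 libraries, 0.56 (SE 0.21, edgeR adjusted p = 0.187). The class median was -0.60 over 6 genes with 8 libraries and -0.49 with 7.

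Heterozygous replicates 3 and 4 had the highest Col3a1, Col1a1 and Col1a2, and they also had more of the 12 meningeal fibroblast markers. These summed to 107, 92.9, 144 and 158 TPM in homozygous replicates 1 to 4 and to 106, 108, 174 and 217 TPM in heterozygous replicates 1 to 4, with overlap; 9 of 12 had a log2 fold change below 0, with a median of -0.21 with 8 libraries, and 7 of 12, with a median of -0.10, with 7. Schwann cell markers, of cells that myelinate the nerve roots, summed to 74.6 to 114 TPM in homozygous and 200.4 to 669 TPM in heterozygous libraries, without overlap, with 8 of 11 tested below 0 in either fit. Of all tested genes, 49.6% were below 0 with 8 libraries and 49.5% with 7. No marker of either list was at 0 in every library. The part of these cell types in the collagen values was not tested.

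**Figure D3:**
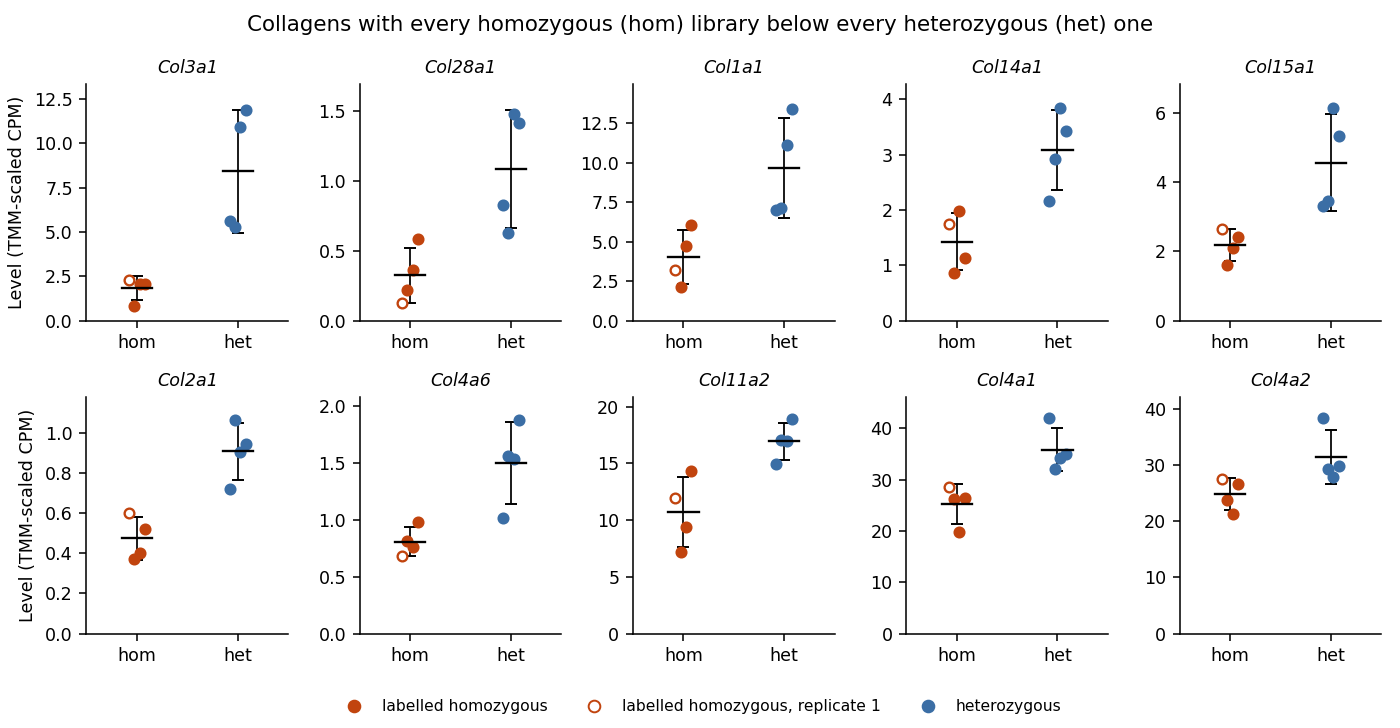
TMM-scaled CPM (vertical axes, from 0) in each library for the 10 collagens whose homozygous libraries (left) all lie below all heterozygous libraries (right); lines and bars are the mean ± SD of 4 libraries. Col3a1 is at most 2.32 CPM in homozygous and at least 5.29 CPM in heterozygous libraries; the library labelled homozygous replicate 1 is the open point, and its place on the homozygous side follows from how the 10 genes were picked.

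Of the type 4 genes, Col4a1 and Col4a2 were the highest and had log2 fold changes smaller in size than those of Col3a1, Col1a1 and Col1a2. Col4a1, a chain of nearly all basement membranes, stood at 28.6, 26.3, 19.7 and 26.4 CPM in homozygous libraries, against 41.9, 32.1, 34.3 and 35 CPM in heterozygous libraries. The groups did not overlap, and the log2 fold change was -0.50 (SE 0.12, edgeR adjusted p = 0.13) with 8 and -0.57 (SE 0.12, edgeR adjusted p = 0.0604) with 7 libraries. Col4a2, its partner, stood at 27.6, 23.8, 21.3 and 26.7 CPM in homozygous libraries, against 38.5, 29.4, 27.9 and 29.9 CPM in heterozygous libraries. The gap between the groups was narrow, from 27.6 to 27.9 CPM, and closed on TPM, with a log2 fold change of -0.34 (SE 0.11, edgeR adjusted p = 0.199) and -0.39 (SE 0.12, edgeR adjusted p = 0.133) with 7 libraries. Heterozygous replicate 1 was the highest library for both genes.

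Of the rarer chains, Col4a6, found with Col4a5 around smooth muscle, stood at 0.68, 0.82, 0.77 and 0.98 CPM in homozygous libraries, against 1.02, 1.56, 1.53 and 1.89 CPM in heterozygous libraries. These do not overlap, on 19 to 30 counts in homozygous and 38 to 72 in heterozygous libraries, and the log2 fold change was -0.89 (SE 0.24, edgeR adjusted p = 0.143) with 8 libraries and -0.80 (SE 0.26, edgeR adjusted p = 0.143) with 7. Col4a5 overlapped, at 2.77 to 4.40 CPM in homozygous and 2.78 to 5.47 CPM in heterozygous libraries. Col4a3 and Col4a4, best known from the kidney filter, overlapped as well. Col4a3 stood at 0.55 to 0.64 CPM in homozygous and 0.53 to 1.52 CPM in heterozygous libraries, and Col4a4 at 0.74 to 1.69 CPM in homozygous and 0.60 to 2.04 CPM in heterozygous libraries. The class median was -0.40 with 8 and -0.41 with 7 libraries.

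Vessel markers are set beside the type 4 values, and their TPM sums overlapped between the groups. Of all tested genes, 49.6% had log2 fold changes below 0 with 8 libraries and 49.5% with 7. The 10 endothelial markers summed to 112 to 202 TPM in homozygous and 196 to 254 TPM in heterozygous libraries, with 10 of 10 log2 fold changes below 0 in either fit and a median of -0.41 with 8 and -0.43 with 7 libraries. The 10 mural cell markers, of pericytes and smooth muscle, summed to 97.6 to 150.3 TPM in homozygous and 144 to 208 TPM in heterozygous libraries, with 8 of 10 below 0 in either fit. None of these markers was at 0 in every library, and their part in the type 4 values was not tested.

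The other collagens differed in size and direction from one kind to the next. Col15a1, a proteoglycan collagen of the outer basement membrane zone, stood at 2.64, 1.60, 2.10 and 2.41 CPM in homozygous libraries, against 3.31, 3.46, 6.14 and 5.31 CPM in heterozygous libraries. It did not overlap in CPM, but did in TPM, and had a log2 fold change of -1.05 (SE 0.24, edgeR adjusted p = 0.121), and -1.16 (SE 0.26, edgeR adjusted p = 0.0634) with 7 libraries. Col18a1, its relative and the source of endostatin, stood at 4.60, 3.54, 3.51 and 4.31 CPM in homozygous libraries and 5.24, 4.49, 7.26 and 7.36 CPM in heterozygous libraries. Only the library labelled homozygous replicate 1 overlapped, and the log2 fold change was -0.61 (SE 0.18, edgeR adjusted p = 0.158) with 8 and -0.69 (SE 0.20, edgeR adjusted p = 0.111) with 7 libraries.

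Col14a1, which sits on the surface of type 1 fibrils, stood at 1.75, 0.86, 1.97 and 1.14 CPM in homozygous libraries, against 2.16, 2.93, 3.84 and 3.43 CPM in heterozygous libraries. Its log2 fold change was -1.11 (SE 0.27, edgeR adjusted p = 0.13), and -1.23 (SE 0.31, edgeR adjusted p = 0.0791) with 7 libraries. Its relatives Col12a1 and Col16a1 overlapped between the groups. Col12a1 stood at 6.70 to 10.05 CPM in homozygous and 7.51 to 11.8 CPM in heterozygous libraries, and Col16a1 at 6.84 to 11.6 CPM in homozygous and 9.44 to 10.2 CPM in heterozygous libraries.

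Col28a1, known in mice from the basement membranes of peripheral nerve, stood at 0.13, 0.22, 0.36 and 0.59 CPM in homozygous libraries, against 0.83, 0.63, 1.48 and 1.41 CPM in heterozygous libraries. These values rest on 5 to 18 counts in homozygous and 19 to 54 in heterozygous libraries, with a log2 fold change of -1.76 (SE 0.44, edgeR adjusted p = 0.134), and -1.46 (SE 0.42, edgeR adjusted p = 0.112) with 7 libraries. The Schwann cell marker sums given above also separated the groups; their part in the Col28a1 value was not tested.

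Fibrillar collagens best known from cartilage had log2 fold changes below 0 in 5 of 5 genes counted with their relatives Col24a1 and Col27a1. Col11a2 stood at 11.9, 7.18, 9.39 and 14.3 CPM in homozygous libraries, against 14.9, 17.1, 17 and 18.9 CPM in heterozygous libraries, with a log2 fold change of -0.66 (SE 0.18, edgeR adjusted p = 0.148) and -0.72 (SE 0.21, edgeR adjusted p = 0.116) with 7 libraries. Col2a1, the main chain of cartilage, stood at 0.60, 0.37, 0.40 and 0.52 CPM in homozygous libraries, against 0.72, 1.06, 0.90 and 0.94 CPM in heterozygous libraries, with a log2 fold change of -0.91 (SE 0.25, edgeR adjusted p = 0.143) and -1.05 (SE 0.28, edgeR adjusted p = 0.0889) with 7. Neither gene overlapped between the groups. Col11a1, their partner, overlapped, at 3.38 to 6.59 CPM in homozygous and 4.33 to 6.16 CPM in heterozygous libraries. The 6 cartilage markers found in the table summed to 12.1 to 16.3 TPM in homozygous and 15.7 to 19.9 TPM in heterozygous libraries, with overlap and with none at 0 in every library. Only 3 of them passed the filter, Acan, Hapln1 and Sox9. Their log2 fold changes with 8 libraries were -0.55, -0.36 and 0.24. Whether the sum reports cartilage cells, and the part of these markers in the collagen values, was not tested.

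Type 6 chains, which form beaded filaments around cells, had 2 of 6 log2 fold changes below 0 and a median of 0.11 with 8 libraries and 3 of 6 and 0.04 with 7, and on the log2(TPM + 1) scale 5 of 6 and -0.04 with 8. Col6a1 stood at 21.8, 14.8, 15.8 and 17.8 CPM in homozygous and 17.6, 13.2, 12.9 and 13.9 CPM in heterozygous libraries, and Col6a2 at 7.22 to 12.2 CPM in homozygous and 7.01 to 9.18 CPM in heterozygous libraries, both with overlap. Membrane-spanning collagens overlapped too. Col25a1 stood at 33.8 to 49.6 CPM in homozygous and 27.5 to 63.6 CPM in heterozygous libraries, and Col23a1 at 7.50 to 15.4 CPM in homozygous and 8.68 to 15.2 CPM in heterozygous libraries. Of the fibril-coating type 9 chains, Col9a3 stood at 11.7 to 20.2 CPM in homozygous and 11.9 to 24.8 CPM in heterozygous libraries and Col9a2 at 3.72 to 5.2 CPM in homozygous and 3.93 to 5.45 CPM in heterozygous libraries. The network chains Col8a1 and Col8a2 spanned 3.09 to 9.50 and 3.09 to 13.6 CPM in heterozygous libraries, a range that held all homozygous values.

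The remaining members overlapped between the groups and did not pass. Col19a1 stood at 2.86 to 3.95 CPM in homozygous and 3.4 to 5.88 CPM in heterozygous libraries, Col27a1 at 2.64 to 4.52 CPM in homozygous and 3.59 to 4.89 CPM in heterozygous libraries, and Col26a1 at 1.75 to 2.71 CPM in homozygous and 2.49 to 2.71 CPM in heterozygous libraries. Col6a3, the large type 6 chain, stood at 3.5 to 4.76 CPM in homozygous and 2.66 to 6.81 CPM in heterozygous libraries. Col6a4, Col6a5, Col6a6, Col7a1, Col9a1, Col13a1, Col17a1, Col20a1, Col22a1 and Col24a1 lay between 0.05 and 2.16 CPM in every library.

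**Figure D4:**
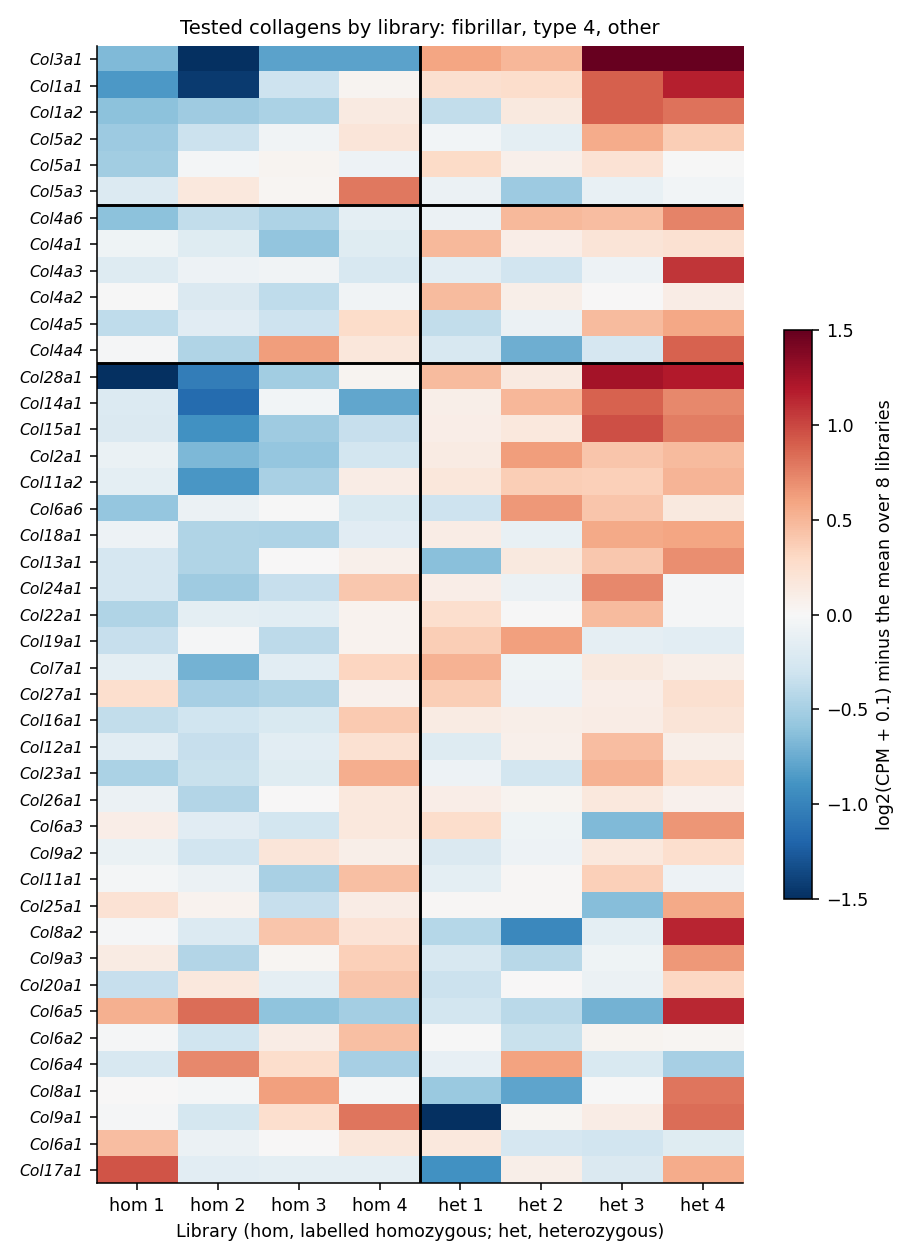
Level of the 43 tested collagens (rows, grouped as fibrillar, type 4 and other) in each library (columns, homozygous left), as log2(CPM + 0.1) minus the gene's mean over 8 libraries, with red above and blue below that mean. Heterozygous replicates 3 and 4 are red for Col3a1, Col1a1, Col28a1, Col14a1 and Col15a1, and homozygous replicate 2 is blue for the same genes.

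Ratios within a library remove its overall scale and show which pairs of genes differed in their proportion. Col3a1 and Col1a2 belong to different types, 3 and 1, so their ratio is not the make-up of 1 molecule. Col4a1 over Col4a2 on CPM was 0.93 to 1.1 in homozygous and 1.09 to 1.23 in heterozygous libraries, with 3 of 4 homozygous libraries below every heterozygous one. On TPM, which also follows the effective length assigned in each library, it was 0.785 to 1.48 in homozygous and 1.06 to 1.3 in heterozygous libraries. Col4a6 over Col4a5 was 0.25, 0.26, 0.26 and 0.22 in homozygous libraries, against 0.37, 0.46, 0.30 and 0.34 in heterozygous libraries, without overlap. Col3a1 over Col1a2 was 0.18, 0.06, 0.15 and 0.10 in homozygous libraries, against 0.37, 0.24, 0.30 and 0.34 in heterozygous libraries, also without overlap. Both pairs were without overlap on TPM too, at 0.158 to 0.181 for Col4a6 over Col4a5 in homozygous and 0.228 to 0.336 in heterozygous libraries, and at 0.0575 to 0.307 for Col3a1 over Col1a2 in homozygous and 0.321 to 0.364 in heterozygous libraries. Col1a1 over Col1a2 overlapped, at 0.16 to 0.34 in homozygous and 0.30 to 0.46 in heterozygous libraries, as did Col6a1 over Col6a2, at 1.45 to 2.47 in homozygous and 1.41 to 1.98 in heterozygous libraries. Of the other pairs computed on both scales, Col5a1 over Col5a2 and Col11a2 over Col11a1 overlapped on both. Col3a1 over Col5a2 overlapped on neither, and Col3a1 over Col1a1 on TPM only. Further pairs were computed on TPM only and are not given. Col3a1 and Col4a6 were already without overlap as single genes, so their ratios are not independent of that. The pairs were chosen with the levels known, and the ratios carry no test.

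**Figure D5:**
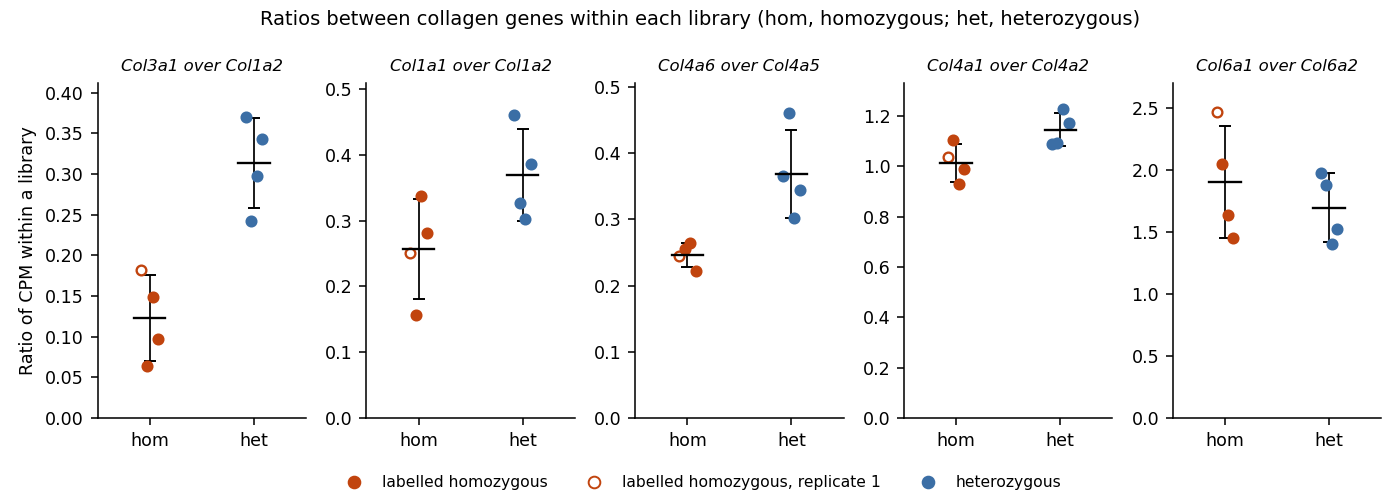
Ratio of CPM between 2 collagen genes within each library (vertical axes, from 0), homozygous left and heterozygous right, with the mean ± SD of 4 libraries and the library labelled homozygous replicate 1 as an open point. Col3a1 over Col1a2 and Col4a6 over Col4a5 do not overlap between the groups, while Col4a1 over Col4a2 overlaps, between 0.93 and 1.23 on this scale.

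Among genes that make, export and trim collagen, only Serpinh1, the chaperone that binds the procollagen helix, passed, and only with 7 libraries. Of 18 synthesis genes 0 passed with 8 libraries and 1 with 7, where 0% and 0.67% of all tested genes were called lower. At an unadjusted p under 0.05 in edgeR, 4 of these 18 were lower with 8 libraries and 6 with 7, and 0 higher. The shares of all tested genes lower at that p were 8.9% and 9.94%. Serpinh1 stood at 17.6, 10.2, 11.4 and 17.4 CPM in homozygous libraries, against 27.1, 23.8, 27.9 and 26 CPM in heterozygous libraries, without overlap. Its log2 fold change was -0.88 (SE 0.17, edgeR adjusted p = 0.101) with 8 libraries, and it fell with 7, at -1.01 (SE 0.17, edgeR adjusted p = 0.0368). Of 13 alternatives with 7 libraries, 6 put Serpinh1 above the threshold. Of 7 tested export genes 0 passed in either fit. Creb3l2, a transcription factor of secretory genes, stood at 14.6 to 18.8 CPM in homozygous and 16.7 to 23.8 CPM in heterozygous libraries, and Sar1b, a GTPase of the vesicles that carry procollagen out of the endoplasmic reticulum, at 45.4 to 52.1 CPM in homozygous and 40.0 to 46.7 CPM in heterozygous libraries. For both genes only the library labelled homozygous replicate 1 overlapped. Replicates 2 to 4 lay below all heterozygous libraries for Creb3l2 and above them for Sar1b. With 7 libraries 8.77% and 9.76% of all tested genes had these patterns. The log2 fold change with 7 libraries was -0.40 (edgeR adjusted p = 0.133) for Creb3l2 and 0.21 (edgeR adjusted p = 0.142) for Sar1b. Of 7 tested processing genes 0 passed; Tll1, a protease that trims procollagen, stood at 0.89 to 2.04 CPM in homozygous and 1.1 to 3.74 CPM in heterozygous libraries, and its relative Tll2 at 0.22 to 0.64 CPM in homozygous and 0.47 to 1.26 CPM in heterozygous libraries.

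Outside the cell, 0 of 6 tested cross-linking genes passed and 6 of 6 had log2 fold changes below 0 in either fit. Of all tested genes, 49.6% were below 0 with 8 libraries and 49.5% with 7, and 0% and 0.67% were called lower. Lox, which oxidises lysines for cross-links, stood at 0.50, 0.67, 1.25 and 0.91 CPM in homozygous libraries, against 1.52, 1.76, 3.01 and 1.89 CPM in heterozygous libraries, without overlap (edgeR log2 fold change -1.32, SE 0.31, adjusted p = 0.13, and -1.12, SE 0.31, adjusted p = 0.0974 with 7 libraries). Tgm2, a transglutaminase, stood at 11 to 17.2 CPM in homozygous and 17.5 to 23.0 CPM in heterozygous libraries. Of 12 fibril partners 0 passed, and 10 were below 0 with 8 libraries and 8 with 7. Lum, a small proteoglycan of fibrils, stood at 0.93 to 1.97 CPM in homozygous and 2.65 to 6.77 CPM in heterozygous libraries (edgeR log2 fold change -1.54, SE 0.34, adjusted p = 0.121, and -1.53, SE 0.40, adjusted p = 0.0931 with 7 libraries), and Dcn, another, at 6.81 to 15.9 CPM in homozygous and 16.4 to 43.9 CPM in heterozygous libraries (edgeR log2 fold change -1.37, SE 0.35, adjusted p = 0.145, and -1.35, SE 0.41, adjusted p = 0.151 with 7 libraries). Of 15 basement membrane partners 0 passed and 14 were below 0 in either fit, with a median of -0.34 with 8 and -0.31 with 7 libraries. Hspg2, which encodes perlecan, stood at 5.25 to 8.64 CPM in homozygous and 10.1 to 18.9 CPM in heterozygous libraries (edgeR log2 fold change -1.07, SE 0.23, adjusted p = 0.118, and -1.14, SE 0.26, adjusted p = 0.0714 with 7 libraries), and Lamc1, a laminin chain, at 25.3 to 29.3 CPM in homozygous and 32.7 to 41.2 CPM in heterozygous libraries (edgeR log2 fold change -0.41, SE 0.08, adjusted p = 0.0974, and -0.44, SE 0.09, adjusted p = 0.0525 with 7 libraries).

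Of 8 tested collagen receptors 0 passed. Itga1, a collagen-binding integrin chain, stood at 3.08, 2.72, 2.10 and 4.11 CPM in homozygous libraries, against 4.65, 6.45, 6.74 and 7.64 CPM in heterozygous libraries (edgeR log2 fold change -1.08, SE 0.21, adjusted p = 0.0974, and -1.09, SE 0.25, adjusted p = 0.0651 with 7 libraries), and its partner Itgb1 at 52.5 to 61.5 CPM in homozygous and 63.0 to 81.3 CPM in heterozygous libraries. With 7 libraries 0.55% of all tested genes were called higher. Of 8 tested degradation genes 0 passed with 8 libraries and 1, higher, with 7. This was Timp1, an inhibitor of matrix metalloproteinases, at 0.39, 1.94, 1.57 and 4.83 CPM in homozygous libraries, against 0.61, 0.23, 0.68 and 0.34 CPM in heterozygous libraries. Replicate 1 was within the heterozygous range and the other 3 above it. The log2 fold change was 2.19 (SE 0.69, edgeR adjusted p = 0.184) with 8 libraries, and Timp1 rose with 7, at 2.55 (SE 0.47, edgeR adjusted p = 0.046). Of 13 alternatives with 7 libraries, 7 put Timp1 above the threshold.

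The authors' deposited table of their own comparison lists 185 genes, 110 lower and 75 higher, and holds 4 collagens, all lower. That table gives no number of tested genes, so no share is set beside this count. It also holds Serpinh1 at -1.06 (authors' edgeR false discovery rate 0.000124) and Timp1 at 2.65 (0.00033). In the authors' deposited table Col3a1 has a log2 fold change of -2.56 and a false discovery rate of 5.66e-07, Col15a1 of -1.36 and 0.000423, Col14a1 of -1.45 and 0.000431, and Col1a1 of -1.36 and 0.0134. Arf1 has -3.5 in the authors' deposited table, so a negative value there is lower in homozygous mice. Gene tables that the authors deposited beside it leave out the library labelled homozygous replicate 1 and heterozygous replicate 1; how that comparison was set up is not stated in any source used here. Without those 2 libraries edgeR's quasi-likelihood test called 2 collagens lower, Col15a1 and Col3a1, with 6 libraries left, where 0.974% of all tested genes were called lower.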

How the data were processed

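RNA of 8 spinal cords was sequenced as 1 library per mouse. The submitters' processing notes name cutadapt, STAR, Picard and RSEM and the genome build mm10 (GRCm38); no source used here gives their versions or the annotation. Expected counts, TPM and effective length were deposited for each gene and library, per the file headers. A deposited table of the authors' own comparison holds p-values, false discovery rates, log2 CPM and log2 fold changes, per the file headers. The deposited sequencing report gives ribosomal bases in percent, the median 5-prime to 3-prime bias and the RNA integrity number.

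Expected counts were rounded. Homozygous was compared with heterozygous over all genes by edgeR 4.0.16 (R 4.3.3) with TMM scaling, filterByExpr, a quasi-likelihood fit (robust) and an adjusted p threshold of 0.05 (Benjamini-Hochberg), on 8 libraries and on 7 without the library labelled homozygous replicate 1. The test was tried on simulated counts. The refits used DESeq2 1.42.0, limma 3.58.1 on log2(TPM + 1), size factors by median of ratios, no filter on low counts, a minimum of 1 CPM in 3 libraries, a covariate for Xist, or 1 library fewer. RSEM shares reads among similar genes, so close relatives such as the type 6 chains are less certain, and overlapping starts such as those of Col4a1 and Col4a2 rely on its strand setting, which no source used here gives. Positions come from GENCODE M21, which held 47224 of 47643 identifiers, and promoter sequences from RefSeq. p-values cover only the spread between these mice.

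Members, the 22 gene lists (8 of the collagen pathway, 14 of cell markers) and the tests were chosen with earlier results of these data known. Statistics are given for the 12 collagens with the smallest p in either fit, Col4a1, Col4a2 and any that passed, and from each pathway list for genes that passed or else the 2 with the smallest p. No Y-linked gene and no level of Xist is reported. Figures were drawn with matplotlib 3.10.9 in Python 3.11.15, with tables read by pandas 2.3.3.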

Additional observations from a re-analysis of the deposited data

Results flagged for a closer look

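Of 94 groups of 4 libraries (44 collagens and 3 summed classes in either genotype), 9 had 1 library apart from the other 3 by more than Dixon's 95% critical value, where chance gives about 1 in 20. In homozygous libraries, Col1a2 stood at 21.6 CPM in replicate 4 and 12.8 to 14.1 CPM in the others, and Col16a1 at 11.6 CPM in replicate 4 and 6.84 to 7.53 CPM in the others. Col3a1 stood at 0.856 CPM in homozygous replicate 2 and 2.09 to 2.32 CPM in the others, Col8a1 at 8.34 CPM in replicate 3 and 5.28 to 5.43 CPM in the others. Col17a1, a hemidesmosome collagen, had 1.23 CPM in the library labelled homozygous replicate 1 and 0.521 to 0.524 CPM in the others. In heterozygous libraries, replicate 4 was apart for Col4a3, at 1.52 CPM with the others at 0.53 to 0.63 CPM, and for Col6a5, at 1.44 CPM with the others at 0.33 to 0.48 CPM. Replicate 2 was apart for Col5a3, at 2.59 CPM with the others at 3.53 to 3.72 CPM, and for Col6a2, at 7.01 CPM with the others at 8.87 to 9.18 CPM.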

How the results depend on the processing

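Named collagens kept their direction in all 347 refits, and 318 also kept their side of the threshold. They were named mostly for a small p in fits of these same mice, so a kept direction is no independent check. The refits share most libraries, and the 7-library fit is itself among the refits of the 8 libraries. Among named genes of the lists, 2 of 376 refits turned, both Sar1b on log2(TPM + 1), at -0.01 (-0.0093 with 8 and -0.0088 with 7 libraries), a scale that moves the median of all genes by -0.14 and -0.17. With 8 libraries, all-gene calls higher and lower were 19 and 44 without a filter and 270 and 409 by DESeq2, and limma called 1 lower; collagens called lower were 6 by DESeq2. With 7 libraries all-gene calls higher and lower were 157 and 287 without a filter, 431 and 650 by DESeq2 and 33 and 30 with the Xist covariate, and limma called 2095 lower. Collagens called lower with 7 libraries were 3 without a filter (Col4a1, Col14a1, Col15a1), 7 by DESeq2 (Col1a1, Col3a1, Col4a1, Col11a2, Col14a1, Col15a1, Col18a1), 4 by limma (Col1a1, Col3a1, Col11a2, Col14a1) and 0 with the Xist covariate. With 7 libraries DESeq2 called 3.93% of all tested genes lower. At an unadjusted p under 0.05, limma with 7 libraries had 12 of 43 collagens lower, where 33.7% of all tested genes were lower. The cause of these shifts in calls was not tested. Leaving out 1 library, all-gene calls ranged from 0 to 91 higher and 0 to 111 lower, and collagens lower from 0 to 1, with 8 libraries; the highest of each was without homozygous replicate 1. With 7 libraries they ranged from 3 to 139 higher, 3 to 263 lower and 0 to 2 collagens lower. The lowest of the all-gene counts came without homozygous replicate 3 and the highest without homozygous replicate 4, and the 2 collagens came without heterozygous replicate 1. The Col3a1 call of the 7 libraries was lost without homozygous replicate 2, 3 or 4 or heterozygous replicate 2, 3 or 4. Homozygous over heterozygous TPM ratios ranged from 0.455 to 0.581 for fibrillar, 0.689 to 0.772 for type 4 and 0.748 to 0.905 for other collagens with 8 libraries, and from 0.450 to 0.603, 0.653 to 0.773 and 0.673 to 0.873 with 7. On CPM per kilobase the type 4 ratio of the 7 libraries was 0.812, where TPM gave 0.702. No paired analysis was possible because the labels give each mouse its own number and pair none. Genes under 1 CPM rest on few counts, and 4 mice a group limit every comparison.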

Other observations

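The marker lists of cells native to the cord were also summed. Astrocyte markers stood at 629 to 1264 TPM in homozygous and 656 to 862 TPM in heterozygous libraries, oligodendrocyte markers at 2104 to 4297 TPM in homozygous and 2945 to 3982 TPM in heterozygous libraries, and markers of their precursors at 40.6 to 58.8 TPM in homozygous and 56.0 to 75.2 TPM in heterozygous libraries. Microglial markers stood at 62.8 to 111 TPM in homozygous and 106 to 131 TPM in heterozygous libraries, and ependymal markers at 34.2 to 49.6 TPM in homozygous and 28.5 to 72.2 TPM in heterozygous libraries. These groups overlapped. Neuronal markers overlapped too, at 3470 to 4242 TPM in homozygous and 4099 to 4742 TPM in heterozygous libraries. Bone markers stood at 8.48 to 11.95 TPM in homozygous and 13.4 to 15.7 TPM in heterozygous libraries, without overlap, though 2 of the 4 tested had log2 fold changes above 0 (Ibsp 1.38 and Sp7 0.27). Sensory ganglion markers stood at 0.76 to 2.02 TPM in homozygous and 0.58 to 5.1 TPM in heterozygous libraries. No gene of these lists was listed at 0 TPM in all 8 libraries, and their part in the collagen values was not tested.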
